A study of Mus musculus with 16 samples.

Results

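The 10 genes Tubb3, Map2, Dcx, Stmn2, Elavl3, Elavl4, Nefl, Nefm, Ina and Gap43 encode proteins of the neuronal cytoskeleton, neuronal RNA-binding proteins and a growth cone protein. They were taken by symbol and make up 10 of the 24218 genes, and 17 of the 33750 rows, of the deposited table. All 10 were above 0 in at least 1 library and entered the fit of 20545 genes. Embryoid bodies (EBs), aggregates of embryonic stem cells that differentiate in suspension, were grown from the mouse ES cell line R1 for 4 days without LIF, the cytokine that keeps such cells undifferentiated. Day 0 is the day on which retinoic acid (RA) was added, before its addition, and day 4 is 4 days later, in 2 μM RA. The treatment and the age of the EBs change together, so RA and 4 further days in suspension cannot be told apart. Each day had 2 RNA samples from separate repeats of the procedure, and each RNA sample was divided into 4 vials that received spike-in mix 1, 2 or 3 or, as mix 4, no mouse spike-in. All vials also received control RNAs of the External RNA Controls Consortium (ERCC). ERCC mix 1 went with mouse mixes 1 and 3, and ERCC mix 2 with mixes 2 and 4.

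A young neuron builds a long, thin axon, and for this it changes its cytoskeleton. It adds neuron-specific tubulin, proteins that bind and stabilise microtubules, and intermediate filaments of its own. RNA-binding proteins of the Elavl family stabilise and splice the messages of this programme, and the growth cone at the axon tip is rich in Gap43. These genes are widely used as markers of neurons that have left the cell cycle. RA is known to drive EBs towards neural fates, but the EBs used here are mixtures of cell types and were not sorted.

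The data did not show these genes rising together by day 4. Of the 10, Dcx alone was called higher at day 4, Tubb3, Ina and Gap43 were called lower, and 6 were not called at an adjusted p of at most 0.05. The share of all genes called higher was 14.9% and the share called lower was 9.96%, beside which 1 of 10 and 3 of 10 are to be read. The values are FPKM, that is fragment numbers divided by transcript length and library size. As FPKM also depended on GC content, they compare levels between genes only roughly. They are given in steps of 0.01 FPKM before scaling, and the number of fragments behind them is unknown. Changes are differences of log2(FPKM + 0.1) between the means of 2 RNA samples a day, which understates changes of genes near 0.

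The libraries differed in how FPKM depended on the GC content of the transcript, and this runs through all values below. At day 4 against day 0, the median log2 change was 0.75 over the 554 genes under 40% GC and -1.05 over the 2165 genes of 55 to 60% GC, counting genes of at least 1 FPKM. The vials of mixes 3 and 4 of day 0 replicate 2 differed in the same way from the vials of mixes 1 and 2 of the same RNA, by a median log2 difference of 0.98 under 40% GC and -1.88 at 55 to 60% GC. A GC correction, which removes the deviation of each library at each GC content, was therefore computed for every gene. It can also remove changes that belong to the day. The 10 genes span much of this range, from 38.4% GC for Elavl4 to 57.9% for Tubb3.

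The sequences that follow show base composition in the 3 genes that were called lower. The first 90 coding bases of each are printed 5′ to 3′ from the GENCODE transcript paired with its RefSeq row (GRCm38), with runs of at least 4 G or C in capitals.
Tubb3: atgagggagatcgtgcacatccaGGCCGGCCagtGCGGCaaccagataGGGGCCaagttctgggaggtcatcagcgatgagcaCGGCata
Ina: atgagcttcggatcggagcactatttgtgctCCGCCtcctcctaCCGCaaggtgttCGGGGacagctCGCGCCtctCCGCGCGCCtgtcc
Gap43: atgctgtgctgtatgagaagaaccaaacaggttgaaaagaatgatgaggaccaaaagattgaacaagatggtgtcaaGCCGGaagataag
The Ina stretch lies in exon sequence at chr19:47014755-47014844 on the plus strand. Those of Tubb3, between chr8:123411606-123418125 on the plus strand, and Gap43, between chr16:42292307-42340502 on the minus strand, are spliced from more than 1 exon. The GC content of the printed bases was 60.0% in Tubb3, 64.4% in Ina and 41.1% in Gap43. Over the whole coding sequence it was 58.7%, 63.9% and 55.6%. Outside the coding sequence, Tubb3 had 55.7% GC in a transcript of 1868 bases. The whole transcripts had 57.9%, 55.5% and 49.7% GC, all above the 41.4% of Dcx, the gene that was called higher.

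Base composition also differed upstream of the genes. RefSeq start sites were matched for 6 of the 10 genes, and Stmn2, Nefl, Nefm and Gap43 had no entry. The 250 bases before the start are shown for the 3 of the called genes that have one, with GC boxes (GGGCGG on either strand) and TATA boxes (TATAAA on either strand) in capitals.
Tubb3 upstream: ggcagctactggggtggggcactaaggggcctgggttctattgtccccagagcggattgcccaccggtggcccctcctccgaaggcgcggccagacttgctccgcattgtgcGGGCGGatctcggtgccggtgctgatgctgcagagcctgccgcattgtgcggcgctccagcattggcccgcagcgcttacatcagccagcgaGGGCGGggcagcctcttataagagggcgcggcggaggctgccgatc
Ina upstream: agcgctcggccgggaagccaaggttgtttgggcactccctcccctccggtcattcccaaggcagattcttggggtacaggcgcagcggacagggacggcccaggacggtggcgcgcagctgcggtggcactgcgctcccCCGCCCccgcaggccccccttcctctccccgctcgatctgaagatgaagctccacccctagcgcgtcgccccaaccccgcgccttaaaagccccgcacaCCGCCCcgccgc
Dcx upstream: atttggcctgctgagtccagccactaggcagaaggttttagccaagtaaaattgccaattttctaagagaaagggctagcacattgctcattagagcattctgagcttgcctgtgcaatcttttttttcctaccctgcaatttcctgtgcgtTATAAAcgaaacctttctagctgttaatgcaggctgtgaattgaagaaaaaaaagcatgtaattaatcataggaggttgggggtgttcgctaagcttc
These windows are chr8:123411303-123411552 (plus strand), chr19:47014431-47014680 (plus strand) and chrX:143933220-143933469 (minus strand) of GRCm38.p6. They lie before RefSeq starts. The GENCODE transcript of Tubb3 used above starts at chr8:123411424, so the later part of the Tubb3 window lies within that transcript's span. The Tubb3 window had 68.0% GC and 2 GC boxes, and the Ina window had 70.8% GC and 2 GC boxes. The Dcx window had 41.6% GC, 0 GC boxes and 1 TATA box. The GC content of these windows did not follow direction in all members, as the window of Map2, which was called higher after the GC correction, had 81.2% GC and 5 GC boxes. The second RefSeq start of Dcx had 44.8% GC in its window. Over all 32851 windows, the median GC content was 52.4%, 32.7% held a GC box and 12.4% a TATA box. The direct repeat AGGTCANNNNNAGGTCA, an arrangement that RA receptors bind, was found in 0 of the windows of these 3 genes and in 0.00913% of all windows, and other forms of the site were not searched. The motif CAGCTG, an E-box read by proneural factors, was in the Ina window and in 13.0% of all windows.

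The microtubule genes went in opposite directions. Tubb3 encodes class III β-tubulin, the tubulin isotype most used to identify neurons. Its level was 17.6 FPKM in day 0 replicate 1, 6.46 FPKM in day 0 replicate 2, 0.874 FPKM in day 4 replicate 1 and 0.648 FPKM in day 4 replicate 2. The 8 vials of day 0 lay between 3.19 and 19.1 FPKM (median 13.8) and the 8 of day 4 between 0.487 and 1.03 FPKM (median 0.77). Every day 0 vial was above every day 4 vial, although the vials of mixes 3 and 4 of day 0 replicate 2, at 3.19 and 3.35 FPKM, were far below the 11.9 and 7.42 FPKM of the other vials of that RNA. The log2 change was -3.56 ± 0.66 (SE, limma adjusted p = 0.0365). After the GC correction it was -2.44 ± 0.10 (adjusted p = 0.000726). Against the vials of mixes 3 and 4 of day 0 replicate 2 alone, the change was -2.0. Those vials come from 1 RNA sample, so only the size of the change is given for this comparison, here and below. In bulk RNA such as this, fewer cells of a type and less RNA per cell cannot be told apart.

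Dcx encodes doublecortin, which binds and stabilises microtubules in migrating young neurons. The day 0 samples held 0.008 and 0.0173 FPKM, with 2 of the 8 vials listed at 0 and the highest at 0.029 FPKM. The day 4 samples held 2.13 and 2.5 FPKM, and their 8 vials lay between 1.99 and 2.72 FPKM. Dcx rose by a log2 change of 4.42 ± 0.22 (limma adjusted p = 0.00694), and 4.15 ± 0.13 after the GC correction (adjusted p = 0.000665). Against the vials of mixes 3 and 4 of day 0 replicate 2 alone, where Dcx was at 0.0245 FPKM, the change was 4.27. The day 0 values above 0 are 1 to 3 steps of 0.01 FPKM, so the size of the change rests on the pseudocount, while the day 4 level does not. Dcx was the member with the smallest spread between the RNA samples relative to its change.

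Stmn2 encodes a stathmin family protein that binds tubulin in growing axons. Its RNA samples held 10.9 and 8.96 FPKM before RA, against 5.13 and 3.81 FPKM after it. The day 0 vials lay between 6.34 and 11.9 FPKM (median 11.0) and the day 4 vials between 3.39 and 5.51 FPKM (median 4.56), with no overlap. The log2 change was -1.12 ± 0.25 (limma adjusted p = 0.0541), which missed the threshold. With the replicate as a block the adjusted p was 0.025, and after the GC correction the change was -1.27 ± 0.24 (adjusted p = 0.0165). Stmn1, the family member used in dividing cells, was far more abundant per length with 265 ± 9.77 FPKM (SD, n = 2) before and 522 ± 17.3 FPKM after RA. Stmn2 was 3.84% and 3.35% of the summed FPKM of Stmn1 to Stmn4 at day 0 and 0.95% and 0.74% at day 4.

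Map2 encodes the microtubule-associated protein of dendrites and cell bodies. The RNA samples of day 0 held 0.954 and 1.49 FPKM, and those of day 4 held 2.13 and 2.67 FPKM. The day 0 vials lay between 0.786 and 2.11 FPKM (median 1.06) and overlapped the day 4 vials, which lay between 2.02 and 2.92 FPKM (median 2.26). The overlap came from the mix 3 vial of day 0 replicate 2, at 2.11 FPKM. The mix 4 vial of that RNA was at 1.79 FPKM, below all day 4 vials, and the other 6 vials of day 0 were at 1.15 FPKM or less. The log2 change of 0.98 ± 0.32 was not called (limma adjusted p = 0.108). After the GC correction it was 0.54 ± 0.14 and was called (adjusted p = 0.0421).

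**Figure D1:**
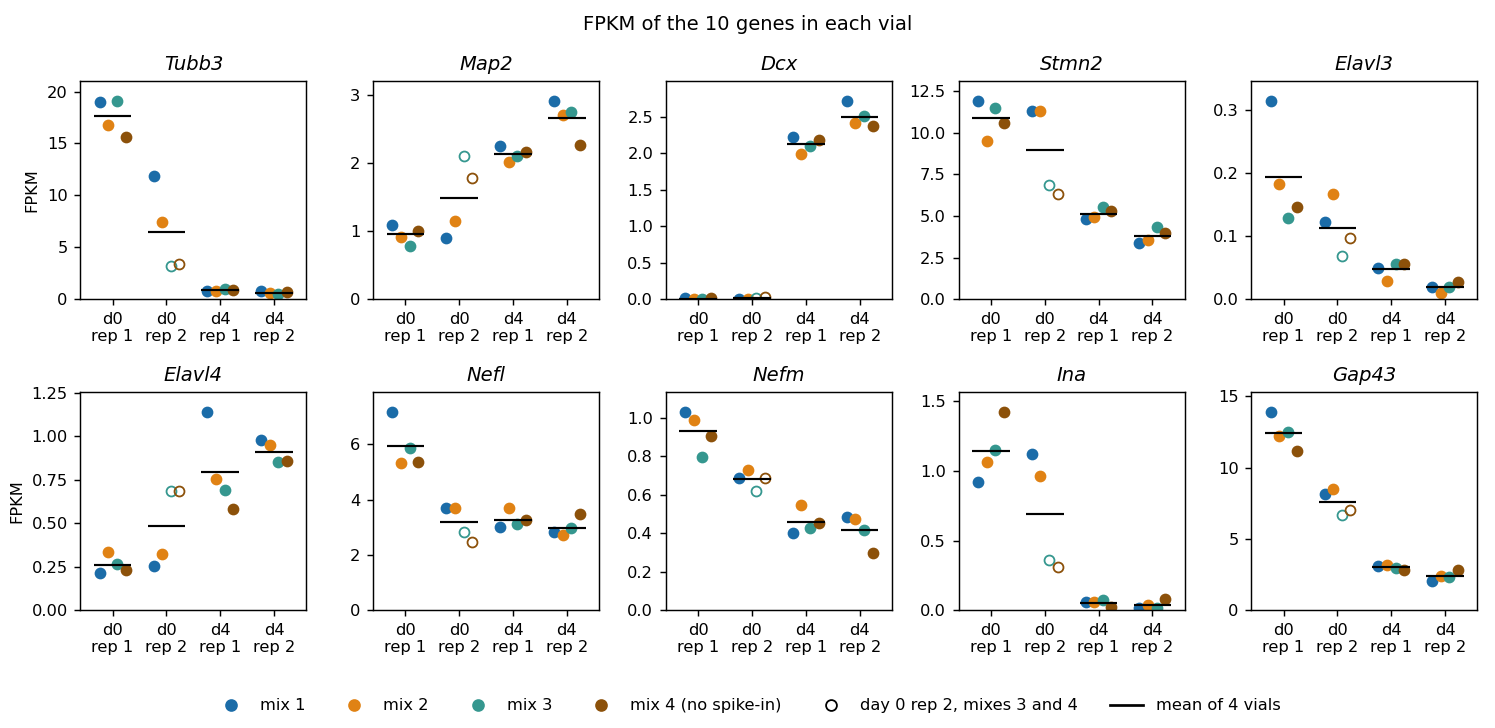
FPKM (vertical axis, linear, from 0, with a scale of its own in each panel) of the 10 genes in the 4 vials of each RNA sample (d0 and d4, days 0 and 4; colour, spike-in mix; line, mean of 4 vials; open circles, the vials of mixes 3 and 4 of day 0 replicate 2). Dcx is near 0 in all 8 vials of day 0 and between 1.99 and 2.72 FPKM at day 4, and the open circles of Tubb3, at 3.19 and 3.35 FPKM, lie between the other day 0 vials and day 4.

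The RNA-binding genes Elavl3 and Elavl4 encode proteins also known as HuC and HuD, which mark neurons from the time they leave the cell cycle. Both were low. Elavl3 stood at 0.194 and 0.114 FPKM in the day 0 samples, against 0.0475 and 0.019 FPKM in the day 4 samples. Its vials did not overlap, with 0.069 FPKM as the lowest of day 0 and 0.056 FPKM as the highest of day 4. A log2 change of -0.89 ± 0.21 (limma adjusted p = 0.0596) resulted, with an adjusted p of 0.0137 under the replicate block. After the GC correction it was -0.63 ± 0.13 (adjusted p = 0.02). The day 4 values are 1 to 6 steps of 0.01 FPKM.

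Elavl4 stood at 0.262 and 0.488 FPKM in the day 0 samples, against 0.792 and 0.91 FPKM in the day 4 samples. The vials of mixes 3 and 4 of day 0 replicate 2 were at 0.688 and 0.687 FPKM, above the lowest day 4 vial at 0.585 FPKM, and the other day 0 vials were at 0.335 FPKM or less. The log2 change of 1.07 ± 0.33 was not called (limma adjusted p = 0.094), nor was the change of 0.45 ± 0.13 after the GC correction (adjusted p = 0.0534). Elavl1, the family member that all cells use, had 41.2 ± 2.46 FPKM (SD, n = 2) before and 36.8 ± 1.5 FPKM after RA, and Elavl2 3.71 ± 1.15 and 3.63 ± 0.169 FPKM. Neither was called as deposited, while after the GC correction both were called lower, by log2 changes of -0.33 (adjusted p = 0.0142) and -0.69 (adjusted p = 0.00933). Elavl3 and Elavl4 were 0.452% and 0.612% of the summed FPKM of the 4 family members in day 0 replicate 1 and 0.0447% and 2.14% in day 4 replicate 2. The replicates between these gave 0.237% and 1.01% in day 0 replicate 2 and 0.119% and 1.98% in day 4 replicate 1, so Elavl4 exceeded Elavl3 in each RNA sample, and by more at day 4.

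The intermediate filament genes differed among themselves. Nefl and Nefm encode the light and medium neurofilament subunits, which lie near each other on chromosome 14, and Ina encodes α-internexin, a filament protein of early neurons. Ina stood at 1.14 and 0.691 FPKM in the day 0 samples, against 0.055 and 0.04 FPKM in the day 4 samples. Its day 0 vials lay between 0.31 and 1.42 FPKM (median 1.01) and its day 4 vials between 0.019 and 0.084 FPKM (median 0.048), without overlap. All day 4 values were under the pseudocount of 0.1, so the size of the change rests on it. Pseudocounts of 0.01 and 1 gave log2 changes of -3.98 and -0.84. With 0.1 the log2 change was -2.67 ± 0.34 (limma adjusted p = 0.019), and -2.15 ± 0.14 after the GC correction (adjusted p = 0.00136). Against the vials of mixes 3 and 4 of day 0 replicate 2 alone, where Ina was at 0.337 FPKM, it was -1.58.

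Nefl was the filament member with the highest level and had no called change. The day 0 samples held 5.94 and 3.18 FPKM and the day 4 samples 3.28 and 3.0 FPKM. The day 0 vials lay between 2.48 and 7.17 FPKM (median 4.52) and the day 4 vials between 2.71 and 3.69 FPKM (median 3.08), so that the days overlapped. Replicate 1 of day 0 was above all other vials, and replicate 2 of day 0 was at the level of day 4. The log2 change was -0.45 ± 0.38 (limma adjusted p = 0.423), with a 95% interval from -1.55 to 0.64. Against the vials of mixes 3 and 4 of day 0 replicate 2 alone it was 0.23.

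Nefm stood at 0.932 and 0.681 FPKM before RA, against 0.458 and 0.42 FPKM after it. Its vials did not overlap, with 0.619 FPKM as the lowest of day 0 and 0.546 FPKM as the highest of day 4. The log2 change of -0.74 ± 0.27 was not called (limma adjusted p = 0.131), and its 95% interval ran from -1.52 to 0.03. After the GC correction it was -0.29 ± 0.17 (adjusted p = 0.226). At 53.4% GC, 2359 genes of similar GC content (within 2 points) had a median change of -0.48 as deposited, so that most of the Nefm difference had the size of the median there.

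Beside the 3 filament members stand Nefh, the heavy subunit, and Prph, which encodes peripherin, a filament of peripheral neurons. Prph fell from 12.7 and 5.43 FPKM to 0.091 and 0.0425 FPKM, a log2 change of -5.6 ± 0.59 (limma adjusted p = 0.0142). Nefh, at 0.516 ± 0.229 FPKM (SD, n = 2) and 0.248 ± 0.0177 FPKM, was not called (adjusted p = 0.206). Of the FPKM summed over these 5 genes, Prph was 59.4% and 52.5% in the day 0 samples and 2.2% and 1.14% in the day 4 samples, while Nefl was 27.7% and 30.8% and then 79.1% and 80.2%. The sum itself went from 21.4 and 10.3 FPKM to 4.14 and 3.73 FPKM. Ina was 5.31% and 6.68% of the sum at day 0 and 1.33% and 1.07% at day 4, the only one of the 3 members whose share was lower at day 4.

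**Figure D2:**
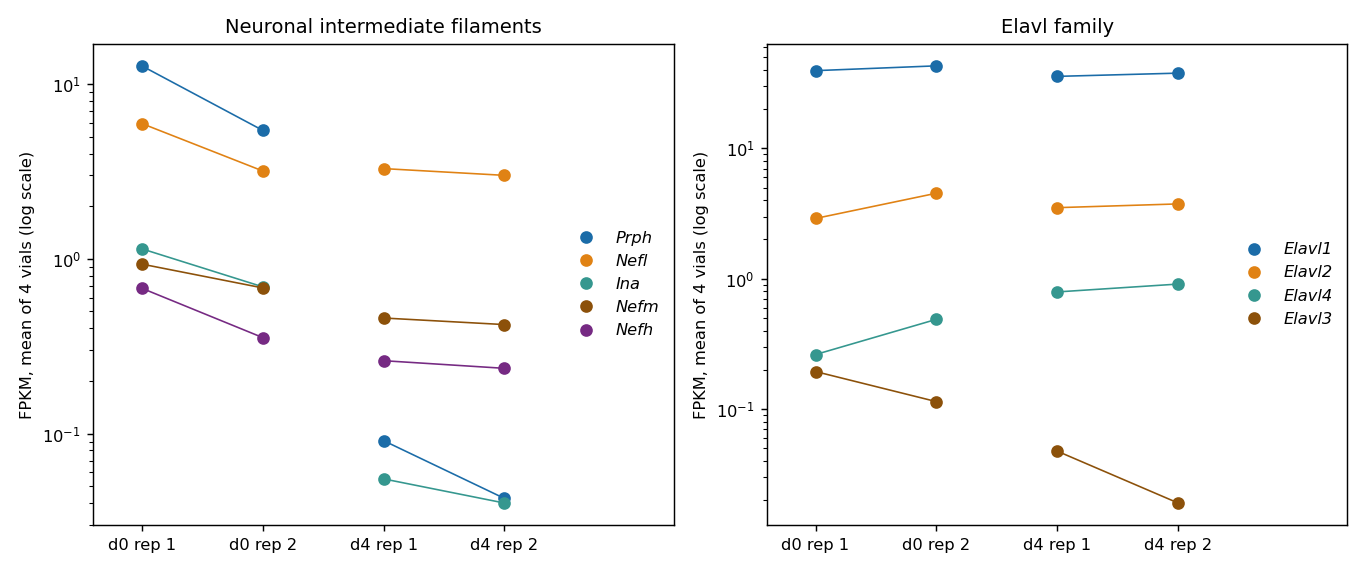
Mean FPKM of 4 vials (vertical axis, log scale) in each of the 4 RNA samples for the neuronal intermediate filament genes (left) and the Elavl family (right), with lines joining replicates of a day. Prph and Ina lie at or under 0.091 FPKM in both day 4 samples while Nefl stays between 3.0 and 5.94 FPKM in all 4, and Elavl1 and Elavl2 lie above Elavl3 and Elavl4 throughout.

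Gap43 encodes a membrane protein of growth cones that takes part in axon extension. The day 0 samples held 12.5 and 7.61 FPKM and the day 4 samples 3.02 and 2.42 FPKM. The day 0 vials lay between 6.71 and 13.9 FPKM (median 9.86) and the day 4 vials between 2.07 and 3.17 FPKM (median 2.84), without overlap. Gap43 fell, with a log2 change of -1.81 ± 0.33 (limma adjusted p = 0.0364). It was nearly the same after the GC correction, at -1.75 ± 0.20 (adjusted p = 0.00446), as the GC content of Gap43 is 49.7%, where the median change of all genes was near 0. Without day 0 replicate 1 the change of Gap43 was -1.46, and against the vials of mixes 3 and 4 of day 0 replicate 2 alone it was -1.32.

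In level as deposited, Tubb3, Gap43 and Stmn2 stood first among the 10 genes at day 0, with means of 12.0 ± 7.88, 10.0 ± 3.43 and 9.93 ± 1.36 FPKM (SD, n = 2), and these 3 did not differ beyond the range of their RNA samples. Nefl followed at 4.56 ± 1.95 FPKM, then Map2, Ina and Nefm between 1.22 and 0.806 FPKM, of which neighbours overlapped. Elavl4, Elavl3 and Dcx came last, each below the one before it in both RNA samples. At day 4 the order was Stmn2 at 4.47 ± 0.939, then Nefl at 3.14 ± 0.201, Gap43 at 2.72 ± 0.424, Map2 at 2.4 ± 0.376 and Dcx at 2.31 ± 0.266 FPKM, and from Nefl to Dcx each overlapped its neighbour. Elavl4 and Tubb3, at 0.851 ± 0.0833 and 0.761 ± 0.16 FPKM, overlapped, Nefm was below them at 0.439 ± 0.0269 FPKM, and Ina and Elavl3 were last, at 0.0475 ± 0.0106 and 0.0333 ± 0.0202 FPKM. Dcx moved from the tenth place to the fifth and Tubb3 from the first to the seventh. With GC-corrected values, Tubb3 took the third place at day 0, with 6.48 and 6.51 FPKM below both samples of Stmn2 (11.9 and 9.18 FPKM) and Gap43 (11.0 and 8.07 FPKM), and the sixth at day 4, with 1.11 FPKM in both samples above Elavl4 (0.648 and 0.646 FPKM). Dcx kept its places after the correction. The correction acts on the deviation of each library, so any GC effect that all libraries share remains in both orders. The summed FPKM of the 10 genes was 50.4 and 29.7 in the day 0 samples and 17.9 and 16.4 in the day 4 samples.

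Tubb3 was also a small part of the β-tubulin message. It made up 1.05% and 0.746% of the FPKM summed over 8 β-tubulin genes in the day 0 samples, and 0.173% and 0.153% in the day 4 samples. That sum went from 1684 and 865 FPKM to 504 and 424 FPKM, and most of it was Tubb5, which all cells use, at 62.5% and 65.7% at day 0 and 76.6% and 76.7% at day 4. Within the doublecortin family, by contrast, Dcx went from 0.305% and 0.563% to 27.7% and 29.2% of the FPKM summed with Dclk1 and Dclk2.

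Across the 10 genes, 7 had a negative and 3 a positive log2 change. The median was -0.82, beside -0.02 over all 20545 genes tested. The 8 vials of day 4 were all below the 8 of day 0 for 6 of the 10 genes (Tubb3, Stmn2, Elavl3, Nefm, Ina and Gap43) and all above for 1 (Dcx). Over all genes tested, the day 4 vials were all below for 14.6% and all above for 19.8%. The 4 vials of an RNA sample share that RNA, so they are no further replicates, and 2 samples against 2 cannot give an exact two-sided p under 0.333. With the replicate as a block, 5 of the 10 genes were called lower and 1 higher, against 19% and 18.5% of all genes. Tubb3 was not called with a pseudocount of 1 (adjusted p = 0.06), and without a filter on low values neither Tubb3 (0.0859) nor Gap43 (0.075) was called. Without either day 4 sample limma called 0 of the 20545 genes (4595 and 4409 at an unadjusted p under 0.05), so these fits do not set the 4 genes apart from others, and their changes stayed about as large, at 4.53 and 4.31 for Dcx and -3.76 and -3.37 for Tubb3.

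After the GC correction, 5 of the 10 genes (Tubb3, Stmn2, Elavl3, Ina and Gap43) were called lower and 2 (Map2 and Dcx) higher, against 23.6% and 27.9% of all genes. The median change of the 10 was -0.56, beside 0.03 over all genes. The direction of each of the 10 was the same as deposited. GC content and change went together over the 10 genes, with a Pearson r of -0.81 (Spearman rho -0.85) as deposited and -0.70 (rho -0.81) after the correction. Over the 11429 genes of at least 1 FPKM with a known GC content r was -0.42. These are descriptions across genes that share the same 4 RNA samples.

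Compared with genes of similar GC content and at least 1 FPKM, the 10 fell into 2 kinds. Tubb3 (-3.56) lay 2.44 below the median of 1639 genes within 2 GC points, which was -1.13, and Ina 1.85, Gap43 1.76 and Stmn2 1.31 below theirs. Dcx lay 3.92 above the median of its 1442 genes. Map2, Elavl4, Elavl3, Nefl and Nefm differed from their medians by 0.53, 0.37, -0.3, -0.47 and -0.27. The place of Elavl3 among these depends on the pseudocount of 0.1, which is close to its level. With a pseudocount of 0.01 its change was -1.92, and medians were not computed for that setting. In the vials of mixes 3 and 4 of day 0 replicate 2, 7 of the 10 genes were below all 6 other day 0 vials and 2 (Map2 and Elavl4, of low GC content) above all of them, against 40.1% and 21% of all genes tested. Without these 2 vials, 3 of the 10 genes were called higher and 6 lower, all but Nefl, against 26.9% and 33.5% of all genes. With them as the only day 0 vials, 1 (Dcx) was called higher and 1 (Ina) lower, against 12.8% and 8.23% of all genes. Against these vials alone, the changes of the genes not called as deposited were smaller and were not called either: 0.28 for Map2 (adjusted p = 0.438), 0.25 for Elavl4 (0.467), -0.57 for Stmn2 (0.239), -0.46 for Elavl3 (0.193) and -0.49 for Nefm (0.179).

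**Figure D3:**
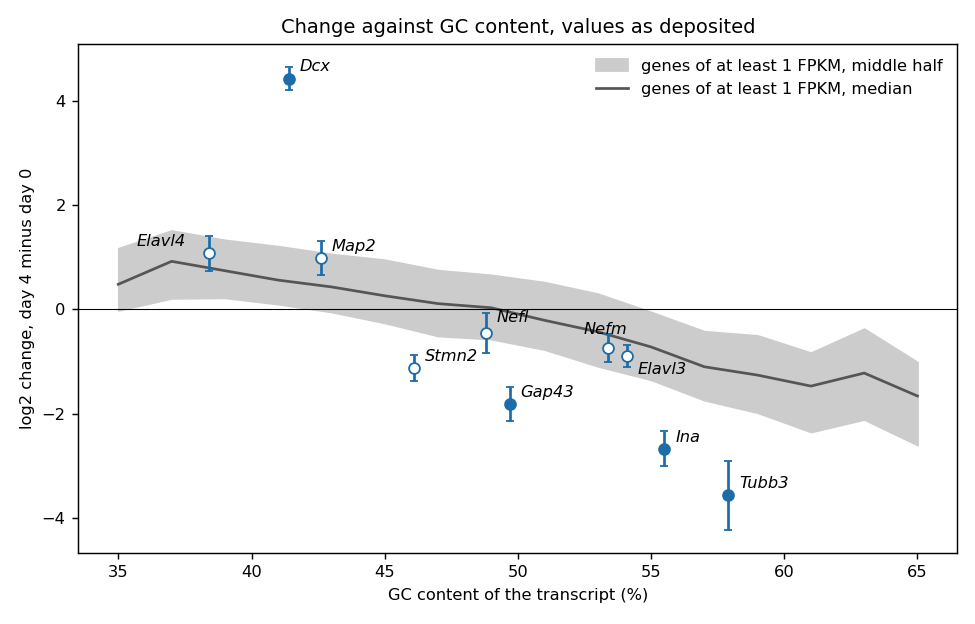
Log2 change from day 0 to day 4 (vertical axis; bars, SE, 2 RNA samples a day; filled, adjusted p at most 0.05) of the 10 genes against the GC content of their transcripts (horizontal axis, %), over the median and middle 50% of all genes of at least 1 FPKM in classes of 2 GC points. Tubb3, Ina, Gap43 and Stmn2 lie below the band and Dcx above it, and the other 5 lie within it. Elavl3 is close to the pseudocount, which understates its change.

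**Figure D4:**
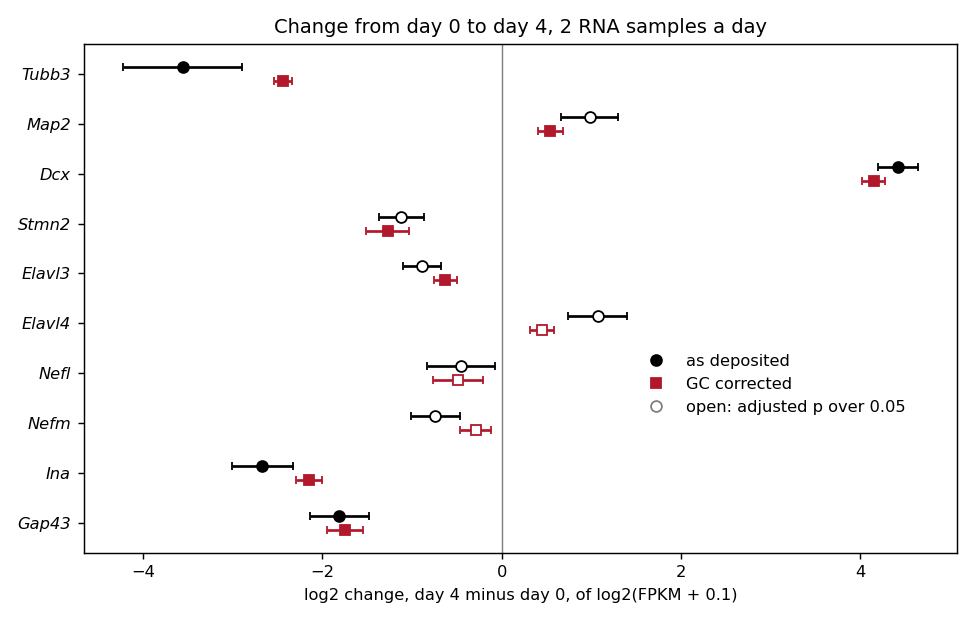
Log2 change from day 0 to day 4 (horizontal axis; bars, SE) of each gene as deposited (black circles) and after the GC correction (red squares), filled where the adjusted p was at most 0.05. All 10 keep their side of 0, from -3.56 for Tubb3 to 4.42 for Dcx as deposited, and 7 are filled after the correction against 4 before it.

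Of the 10 genes, 7 have a single RefSeq row in the table, and Map2, Dcx and Elavl4 have 2, 4 and 4. RSEM divides reads that several rows could have given, so the rows of a gene are less certain than their sum. Of Dcx at day 4, NM_001110224 held 49.7% of the summed FPKM in replicate 1 and 13.3% in replicate 2, and NM_001110223 held 43.9% and 74.9%, so the leading row differed between the replicates. NM_001110223 was listed at 0 in all 8 vials of day 0 and was above 0 in all 8 of day 4, at up to 2.44 FPKM. The Dcx signal of day 0 was all in NM_010025, the shortest row. Fitted singly, 2 Dcx rows were called higher, NM_001110223 (adjusted p = 0.0289) and NM_001110222 (adjusted p = 0.0499), and Ina lower (adjusted p = 0.0381), while Tubb3 (0.053) and Gap43 (0.0526) missed the threshold. The shares of all 28262 rows called were 8.68% higher and 5.17% lower. Of Map2, NM_001039934 held 97.7% and 87.2% at day 0 and 84.9% and 91.3% at day 4. Of Elavl4, NM_001163397 held 87.6% and 77.3%, and then 67.5% and 83.1%.

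Of 73 genes of 4 further neuronal lists, 11 were called higher and 12 lower, with a median log2 change of -0.12, to be read beside 14.9% and 9.96% of all genes. With the GC correction 22 were called higher and 23 lower, with a median of 0.11, beside 27.9% and 23.6%. The higher calls were near the share of all genes in both cases. Of the 25 other neuronal cytoskeleton genes, 3 were called higher and 4 lower. Like its relative Dcx, Dclk1 was higher at day 4, from 1.29 and 2.2 FPKM to 4.8 and 5.49 FPKM (log2 change 1.58 ± 0.32, limma adjusted p = 0.0442), and so was Dpysl3, a collapsin response mediator, from 6.89 and 5.1 FPKM to 13.1 and 13.7 FPKM (1.17 ± 0.22, adjusted p = 0.0381). Prph and Map6, which stabilises microtubules against cold, had the most negative called changes, and Map6 went from 1.41 and 0.749 FPKM to 0.0498 and 0.0312 FPKM (-2.97 ± 0.39, adjusted p = 0.0198). Tuba1a, the main α-tubulin of young neurons, was at 751 and 451 FPKM and then 300 and 265 FPKM, and was not called (adjusted p = 0.113; 0.0338 with the replicate block). Mapt, which encodes tau, shares its locus with a spike-in. Its rows were at 15.2 and 5.25 FPKM in the mix 1 vials of day 0 but at 0.611 and 0.31 FPKM in the vials without mouse spike-in, against 0.102 and 0.075 FPKM in the latter at day 4. The counts above include Mapt, which was not called as deposited. After the GC correction it was among those called lower (limma adjusted p = 0.0145), and so it was with the replicate block (0.0197).

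Beside Elavl3 and Elavl4, the 12 other neuronal RNA-binding genes had 2 called higher and 2 lower. Rbfox3, which encodes the neuronal nuclear antigen NeuN, was at 0.0602 and 0.0272 FPKM and then 0.421 and 0.283 FPKM (log2 change 1.63 ± 0.23, limma adjusted p = 0.0229). Ptbp2, a splicing repressor of early neurons, went from 22.8 and 39.3 to 74.2 and 91.1 FPKM (1.49 ± 0.31, adjusted p = 0.0458). Rbfox1 (-1.71 ± 0.17, adjusted p = 0.013) and Celf5 (-1.51 ± 0.27, adjusted p = 0.0359) were lower. Of the 18 early neuron membrane and secretory genes, 3 were called higher and 2 lower. Ncam1, a cell adhesion molecule of neural cells, went from 2.91 and 2.69 to 26.5 and 24.1 FPKM (3.13 ± 0.16, adjusted p = 0.00694), with Sncg, a synuclein, next (2.82 ± 0.56, adjusted p = 0.0414). L1cam, another adhesion molecule of axons, went from 2.36 and 1.6 to 0.007 and 0.00725 FPKM (-4.17 ± 0.32, adjusted p = 0.0089), and Thy1 was lower too (-2.25 ± 0.41, adjusted p = 0.0362).

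Of the 18 synaptic genes, 3 were called higher and 4 lower. Syt1 (2.36 ± 0.20, limma adjusted p = 0.01) and Syt4 (1.97 ± 0.18, adjusted p = 0.0114), which encode synaptotagmins of vesicles, were higher, at under 1 FPKM in all 4 RNA samples. Gad2 (-1.88 ± 0.18, adjusted p = 0.0119), which makes GABA, and Cplx1 (-1.88 ± 0.32, adjusted p = 0.0321) were lower. Syp, the vesicle protein synaptophysin, at 1.46 ± 0.363 and 0.672 ± 0.0544 FPKM (SD, n = 2), and Snap25, at 0.1 ± 0.00053 and 0.125 ± 0.0099 FPKM, were not called. The list of 14 broadly used cytoskeleton genes, which also holds the RNA-binding gene Elavl1, had a median change of -1.58, with 4 called lower. After the GC correction the median was -0.99, with 12 called lower, Elavl1 among them. The shares of all genes called lower were 9.96% as deposited and 23.6% after the correction. Krt8 (-3.77 ± 0.7, adjusted p = 0.0368) and Krt18 (-3.06 ± 0.6, adjusted p = 0.0412), the keratins of simple epithelia, fell most among those called.

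**Figure D5:**
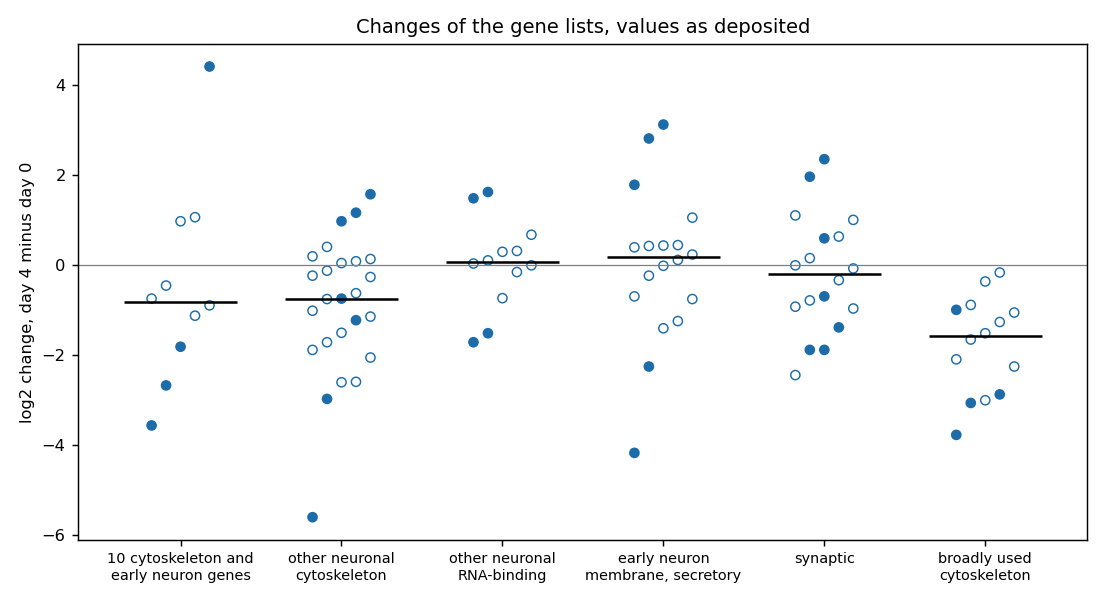
Log2 change from day 0 to day 4 (vertical axis) of each gene (points, filled where the adjusted p was at most 0.05) in the 10 cytoskeleton and early neuron genes and in 5 further lists (horizontal axis), with the median of each list as a line. Called genes lie on both sides of 0 in the 4 neuronal lists, whose medians run from -0.74 to 0.18. They lie below 0 in the broadly used cytoskeleton genes, a list that also holds the RNA-binding gene Elavl1, with a median of -1.58.

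Some markers of other cells differed between the days as well. Counts of called genes below are to be read beside the shares of all genes, 14.9% called higher and 9.96% called lower. Of 8 pluripotency genes, 6 were called lower, and Pou5f1 went from 87.3 and 37.2 FPKM to 1.03 and 0.693 FPKM (log2 change -5.7 ± 0.68, limma adjusted p = 0.0169). Their summed FPKM lay between 101 and 207 in the vials of day 0 and between 6.96 and 12.3 in those of day 4. The summed endoderm markers were 17.2 to 20.8 FPKM in the vials of day 0 and 76.2 to 79.2 FPKM in the vials of day 4, led by Gata6 (3.08 ± 0.13, adjusted p = 0.00694), with 3 of 8 called higher and 1 lower. Gata6 made up most of the endoderm sum at day 4, with 53.2 and 55.7 FPKM against 6.25 and 6.47 FPKM at day 0. Of 8 neural progenitor genes, Pax6 was called higher (1.1 ± 0.19, adjusted p = 0.0325) and 4 were called lower, among them Sox3 (-2.9 ± 0.43, adjusted p = 0.0249) and Sox2 (-2.15 ± 0.27, adjusted p = 0.018), and Nes, the filament of neural progenitors, was at 20.8 ± 2.97 and 19.3 ± 1.46 FPKM (SD, n = 2) and was not called. The astrocyte filament Gfap was at or under 0.138 FPKM in all 16 vials. Summed heart and muscle markers lay between 3.01 and 17.1 FPKM at day 0 and between 3.48 and 7.79 FPKM at day 4, blood and endothelium between 90.0 and 137 and between 92.2 and 122 FPKM, neural crest between 29.1 and 32.9 and between 25.3 and 28.3 FPKM, and glia between 7.39 and 11.5 and between 17.6 and 19.0 FPKM. Slc1a3 made up most of the glia sum at day 4, with 15.5 and 15.8 FPKM against 4.59 and 4.62 FPKM at day 0, and without it the sum lay between 2.82 and 6.81 FPKM at day 0 and between 2.11 and 2.84 FPKM at day 4. Of the 8 genes in each of these lists, 1 of heart and muscle and 4 of blood and endothelium were called lower, and 2 higher and 2 lower in both neural crest and glia. The 1 of heart and muscle was near the share of all genes. Nearly all of the neural crest sum was Ets1, which averaged 30.3 FPKM before RA, fell to 23.8 FPKM after it and was not called. Sox9 came next, with a mean of 0.776 FPKM that rose to 2.47 FPKM. No other gene of that list had a day mean above 0.144 FPKM, so its sum describes Ets1 rather than the neural crest list as a whole. The part of these cells in the changes of the 10 genes was not tested. Rest, which encodes a repressor of neuronal genes in other cells, was at 32.9 and 23.7 FPKM and then 21.1 and 20.9 FPKM, and was not called (adjusted p = 0.249). Of its 6-gene list Hdac2 was called higher (1.22 ± 0.26, adjusted p = 0.0487).

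The genes whose pattern was most like the mean of the 10 (Pearson r over 16 libraries of 4 RNA samples, on standardised log2 values) were Rnf181 (0.99), Abt1 (0.975), Lamp1 (0.974), Adrm1 (0.973) and Nob1 (0.973). All 5 had lower means at day 4, as Lamp1 with 266 and 182 FPKM. The libraries share RNA samples and GC differences, so this likeness is a description only.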

How the data were processed

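Total RNA of EBs was sequenced as stranded, ribosome-depleted, paired-end libraries, 16 in all, from 4 RNA samples of 4 vials. Against the RefSeq transcripts of mm10 plus spike-ins, the authors estimated abundance with RSEM 1.2.18 (Bowtie2 2.1.0 is in the submitters' notes), and deposited FPKM per transcript, scaled by a TMM factor per library. All 16 columns were mapped by title. FPKM totals were 411089 to 622887 per library, and fragment counts are not in the table, so no counting intervals are given. RNA replicate numbers are those of the study's sample list.

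Symbols were found for 99.2% and GC content for 97.4% of the 33702 RefSeq rows (RefSeq and GENCODE M21, GRCm38). FPKM were summed per gene, put on log2(FPKM + 0.1), averaged over the 4 vials of an RNA sample and compared, day 4 against day 0, by limma 3.58.1 (lmFit, eBayes with a trend) in R 4.3.3, with Benjamini-Hochberg adjustment over the 20545 genes above 0 in any library and a threshold of 0.05. The fit was run on simulated data as a check of the code. Python 3.11.15, numpy 2.4.6, pandas 2.3.3 and scipy 1.17.1 were used for tables, and matplotlib 3.10.9 for plots. The GC correction divides each library by its median deviation in 20 bins of GC content, over 13894 transcripts of at least 1 FPKM.

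The study repeated the procedure to give its replicates, so replicate numbers may pair the days, but the labels do not state a pairing. The main fit has no replicate term, and the fit with the replicate as a block has one. The replicate 1 minus 2 differences of the days correlated with r = 0.812 over 11629 genes, and with 0.598 after the GC correction. GC differences that the replicates share are part of the first value.

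Some coding sequence is not reported here. The 10 genes and the gene lists were chosen with earlier results of these data known. Named are the 10, 13 defining genes, the 2 most positive and 2 most negative called genes of each list of neuronal or broadly used genes and some of those of the marker lists, and the 5 most alike genes. Alternatives covered pseudocounts, filters, variance models, scaling, single mixes, left-out samples, the replicate block, GC correction and single transcripts.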

Additional observations from a re-analysis of the deposited data

Results flagged for a closer look

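Within the 8 vials of a day, a vial was marked where its gap to the next, relative to the range of the day on the log2(FPKM + 0.1) scale, was above Dixon's 95% critical value for 8 values. Chance marks about 1 in 20 groups of independent values, and 2 of 46 groups (23 genes, 2 days) were marked. The vials of a day come from 2 RNA samples and are not independent. That rate need not hold here, and a difference between the samples can hide a gap. Prph was at 0.186 FPKM in the mix 1 vial of day 4 replicate 1, above the other day 4 vials, and Pou5f1 was at 0.361 FPKM in the mix 2 vial of day 4 replicate 2, below the others. None of the 10 cytoskeleton and early neuron genes was marked.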

How the results depend on the processing

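Under 25 alternatives, the direction of the 10 genes changed once in 236 values. Nefl turned to 0.23 with the vials of mixes 3 and 4 of day 0 replicate 2 as the only day 0 vials, a setting chosen, like the GC correction without them, after the data were examined. Dcx was called in 22 of the 24 gene-level alternatives, Ina in 18 of 23 and Tubb3 and Gap43 in 16 of 24. As deposited 5112 genes were called (3065 higher), with 1 of the 10 genes higher and 3 lower and 11 of the 73 other neuronal genes higher and 12 lower. In that order (all genes, the 10 genes higher and lower, others higher and lower), the values more than 1.5 times away were these. The GC correction gave 10571, 2, 5, 22 and 23, with 5727 of the calls higher (54.2%). The GC correction with the replicate block gave 11708, 2, 5, 25 and 25, and the GC correction without the vials of mixes 3 and 4 of day 0 replicate 2 gave 13077, 3, 5, 27 and 24. Leaving those vials out without the correction gave 12399, 3, 6, 17 and 31, with 44.6% of calls higher. With them as the only day 0 vials, day 0 has 1 RNA sample, so the calls of that setting are not given. The replicate block gave 7692 genes (49.3% higher), 5 of the 10 lower and 24 others lower, and beside Stmn2 and Elavl3 it changed no call among the 10. The 16 vials with the RNA sample as a random block gave 9423, 3, 6 and, for others lower, 26. Mix 1 alone gave 11610 genes (42.5% higher), 3 of the 10 higher and 31 others lower, and mix 2 alone gave 2 and 5 of the 10 and 20 others lower. Mix 3 alone gave 735 genes (74.6% higher), 0 of the 10 lower, 2 others higher and 0 lower, and mix 4 alone 1402 genes (74.1% higher), 0 of the 10 lower, 3 others higher and 1 lower. Unmoderated variances gave 1879 genes, 0 of the 10 lower and 3 and 1 others. A mean of at least 1 FPKM left 3153 genes and 7 and 4 others, with fewer genes tested. No filter on low values gave 1 of the 10 lower and 5 others higher, the log2 of the mean FPKM of the vials gave 5 of the 10 lower, and transcripts fitted singly gave 1 of the 10 lower and 7 others higher.

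Leaving out 1 RNA sample gave 0 to 9451 genes, 0 to 2 of the 10 higher and 0 to 6 lower, and 0 to 12 others higher and 0 to 28 lower. Without either day 4 sample limma called 0 genes (4595 and 4409 at an unadjusted p under 0.05), and without day 0 replicate 2 it called 9451 (39.7% higher). The lone sample is there assumed to vary like the other day. Ranges of the limma adjusted p are given for gene-level alternatives with 2 RNA samples a day, without the fit of 16 vials. They ran from 0.000652 to 0.277 for Tubb3 and from 0.000224 to 0.0426 for Dcx. For Ina they ran from 0.000588 to 0.246 and for Gap43 from 0.000954 to 0.167. The fit of 16 vials gave far lower values, from 7.45e-14 for Dcx to 3.43e-05 for Ina. Its vials are splits of 4 RNA samples and no further replicates, so these values overstate the evidence. The causes were not tested.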
